A study of Homo sapiens with 6 samples.

Results

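Asparagine, aspartate and glutamine are joined by a small set of enzymes, and the RNA levels of 9 of their genes are described here: ASNS, GLUL, GOT1, GOT2, GPT2, GLUD1, ASS1, ASL and CPS1. They were chosen by name, from a list drawn up with earlier results of these data known, and the deposited table of 11911 genes holds all 9. The cells were RS4;11, a widely used human leukemia line of the B-precursor lymphoblastic kind that carries a KMT2A::AFF1 fusion. One group of 3 libraries came from cells without asparagine, called depleted here, and the other group of 3 libraries came from cells with asparagine. RNA was taken 16 hours after the amino acid was withdrawn. Both groups carry the same entry for the medium, which names no asparagine and dialyzed serum, so the medium of the cells with asparagine is uncertain. The short column names of the depleted libraries could also stand for asparaginase, which the sample titles do not mention. All libraries are of a single line, and the labels do not speak of separate cultures within a group, so a p-value here reflects how far these libraries scatter, and that scatter may be technical.

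Asparagine synthetase, encoded by ASNS, takes an amide group from glutamine and puts it on aspartate, which gives asparagine and glutamate. Aspartate is made from oxaloacetate by the transaminases GOT1 in the cytosol and GOT2 in mitochondria, and glutamine is made from glutamate by GLUL. Lymphoblastic leukemia cells often have little ASNS and take asparagine from the blood, which is why asparaginase is used against this disease. When amino acids run short, the transcription factor ATF4 is known to bind elements in the promoters of ASNS and other genes and to raise their transcription.

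The start of ASNS is the classical example of such a promoter, so its sequence is shown with those of GOT1 and GOT2, the transaminase genes that moved in opposite directions. Each sequence is the 250 bases before a transcription start in RefSeq (GRCh38.p14), read 5′ to 3′ on the strand of the gene. They lie at chr7:97872409-97872658 for ASNS, chr10:99430625-99430874 for GOT1 and chr16:58734317-58734566 for GOT2, all on the minus strand. Capitals mark every match to the amino acid response core TGATGNAAN on either strand and, in ASNS alone, the element GTTACA, which is known together with TGATGAAAC as the pair of nutrient-sensing response elements of this gene.
ASNS: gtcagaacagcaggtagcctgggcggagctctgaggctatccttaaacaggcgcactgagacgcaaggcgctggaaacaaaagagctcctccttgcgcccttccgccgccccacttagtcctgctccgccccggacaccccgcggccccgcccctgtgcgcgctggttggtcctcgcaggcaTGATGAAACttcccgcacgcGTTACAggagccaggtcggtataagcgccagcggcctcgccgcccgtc
GOT1: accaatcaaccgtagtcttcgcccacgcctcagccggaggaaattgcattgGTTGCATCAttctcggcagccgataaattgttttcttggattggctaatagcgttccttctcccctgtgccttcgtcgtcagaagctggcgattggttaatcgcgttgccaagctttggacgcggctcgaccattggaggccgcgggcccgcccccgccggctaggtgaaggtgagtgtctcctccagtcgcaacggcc
GOT2: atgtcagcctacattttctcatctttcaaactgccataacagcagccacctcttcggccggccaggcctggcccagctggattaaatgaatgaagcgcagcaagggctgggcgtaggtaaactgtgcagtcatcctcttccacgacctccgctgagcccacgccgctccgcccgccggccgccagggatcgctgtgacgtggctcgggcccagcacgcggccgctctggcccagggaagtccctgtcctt

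The printed ASNS window holds TGATGAAAC at positions -68 to -60 and GTTACA at -48 to -43, counted back from -1 at the base before the start. Another RefSeq window of ASNS, at chr7:97872116-97872415, holds no match to the core or to GTTACA. The GOT1 window holds a core match at -199 to -191 on the opposite strand. GOT2 has none in these letters. RefSeq windows of 300 bases, 250 before and 50 after the start, were at hand for 8 of the 9 genes (13 windows), and the core was found in those of 2 genes, ASNS and GOT1. GPT2 had no window. Of 35116 such windows over all genes, 3.61% hold the core on either strand, 0.225% hold TGATGAAAC, which is itself a form of the core, and 6.66% hold GTTACA. A window of ASS1 also holds GTTACA, at -86 to -81. A match is a run of letters and not a shown binding site.

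Over the whole series, the values corresponded to 29971364 to 40577308 reads in depleted libraries and 36611101 to 51127073 reads in libraries with asparagine. All 10 B-precursor marker genes and all 3 genes typical of KMT2A-rearranged leukemia that were looked up were in the table, with summed levels of 3040 to 3710 and 309 to 358 normalized CPM in depleted libraries, against 3412 to 3553 and 315 to 321 CPM with asparagine. Single B-precursor markers differed more than their sum: picked after their values were seen, VPREB1 averaged 120.4 CPM in depleted cells and 438 CPM with asparagine, CD22 averaged 166 and CD79B 136 CPM in depleted cells, against 312 and 235 CPM with asparagine, and PAX5 averaged 1333 CPM in depleted cells and 1004 CPM with asparagine. None of 5 T cell and 3 erythroid markers was in it, and CSF1R was the single 1 of 5 myeloid markers, at 16.0 to 28.9 CPM in depleted libraries and 30.4 to 31.4 CPM with asparagine. Depleted library 1 stood apart. Pearson's r of its log2 values across genes (genes are no independent replicates) with depleted libraries 2 and 3 was 0.940 and 0.934, against 0.996 between those. With the libraries with asparagine its r was 0.927 to 0.928, nearly as high, while that of depleted libraries 2 and 3 was 0.846 to 0.883. The distance followed the GC content of the transcripts: in the fifth of genes with the highest GC content, depleted libraries 2 and 3 had median log2 differences of -0.86 and -0.89 from the mean with asparagine, and depleted library 1 had -0.09. Each enzyme is therefore given library by library, and its change also after a correction that removes each library's trend with GC content. What this trend or the odd library contributed to a difference was not tested beyond those values.

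Of the 9 enzyme genes, 4 were higher in depleted cells (GOT1, ASS1, GPT2 and CPS1), 3 were lower (GOT2, GLUL and GLUD1) and 2, ASNS and ASL, did not pass the test. The test was limma on log2(CPM + 1), with p-values adjusted by the Benjamini-Hochberg method over all 11892 genes tested and a threshold of 0.05. Folds are ratios of mean CPM, and log2 fold changes are on the scale of CPM + 1, which understates the change of low genes. The test called 25.1% of all genes higher and 26.2% lower, so changes were common in this comparison. The median log2 fold change, depleted minus with asparagine, was -0.30 for the 9 genes and 0.0098 for all genes tested. In 8 of the 9 the libraries of the groups did not overlap, ASL being the exception, with 4 lying higher and 4 lower. Among all genes tested 61.1% did not overlap, 30.2% higher and 30.8% lower. After the GC correction 5 of the 9 were higher and 4 lower, beside 35.1% and 34.3% of 11344 genes. Without depleted library 1, 4 were higher and 4 lower, beside 40.5% and 41.3% of all genes, and with the GC correction as well 5 were higher and 4 lower, beside 39.6% and 38.7%. Reads in bulk cannot tell fewer cells of a kind from less RNA per cell, and a change in total RNA is not visible in scaled values.

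**Figure D1:**
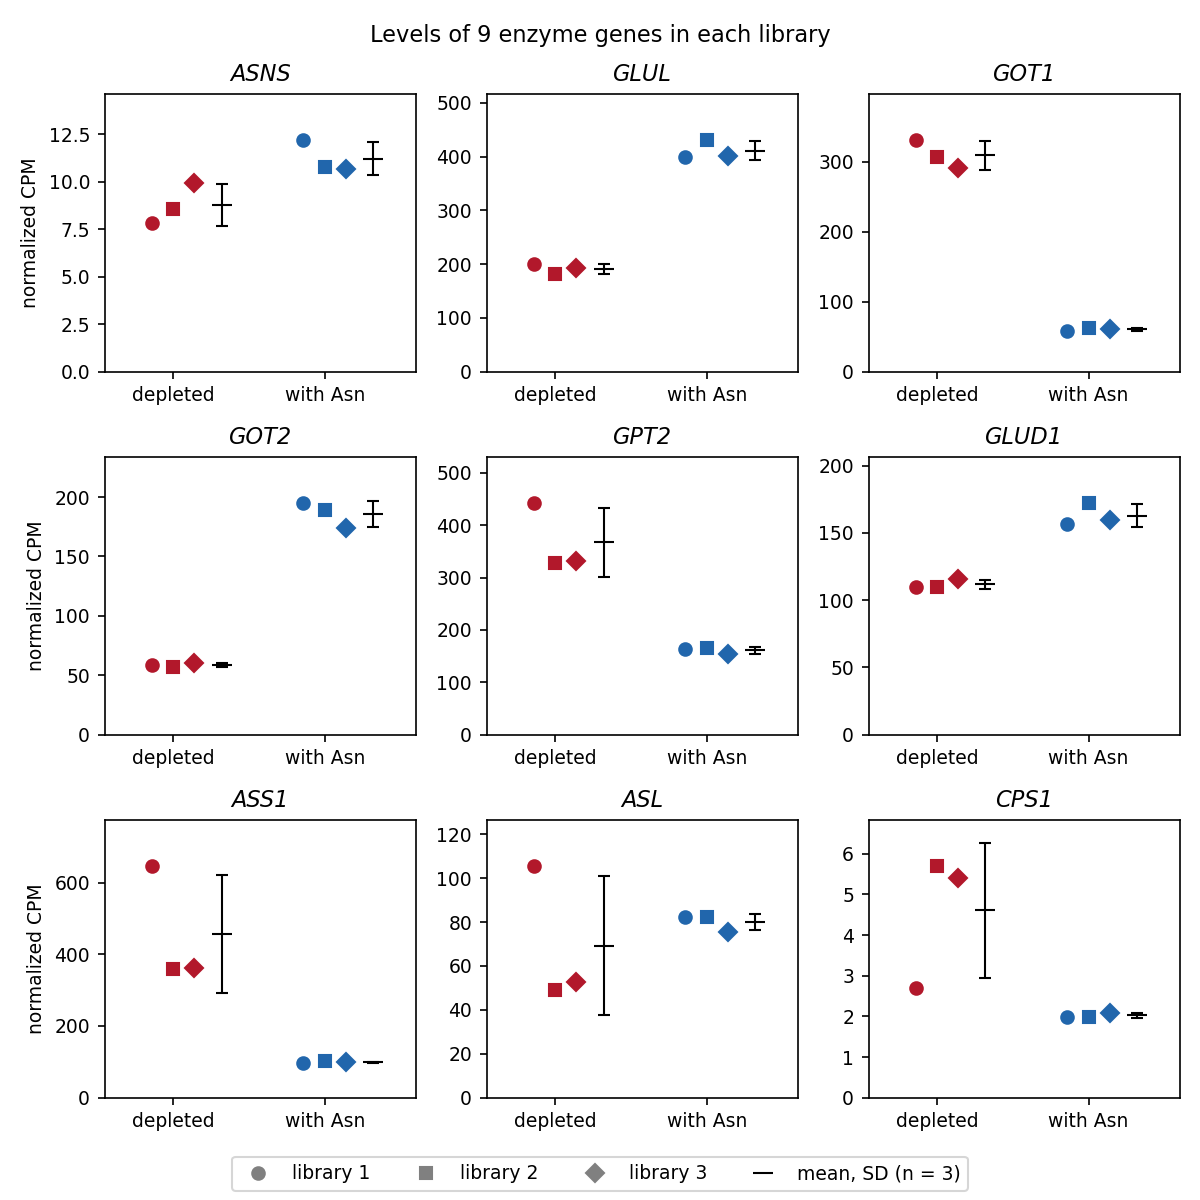
Normalized CPM (vertical axes, from 0, scaled per gene) of the 9 enzyme genes in each depleted library (red) and each library with asparagine (blue); bars are the mean and SD of 3 libraries. Depleted libraries lie above those with asparagine for GOT1, GPT2, ASS1 and CPS1 and below them for ASNS, GLUL, GOT2 and GLUD1, while for ASL depleted library 1 lies above and depleted libraries 2 and 3 lie below.

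ASNS (chromosome 7, 97852118 to 97872542 on GRCh38 in GENCODE 29, minus strand), the only gene of an enzyme that makes asparagine in human cells, was not raised. It had 7.82, 8.55 and 9.95 CPM in depleted libraries 1, 2 and 3, against 12.2, 10.8 and 10.7 CPM in libraries 1, 2 and 3 with asparagine. Each depleted library was below each library with asparagine, and the gap between the nearest of them was narrow. The log2 fold change was -0.33 (SE 0.14, 95% interval -0.66 to 0.013, limma adjusted p = 0.0943). The GC correction made it -0.63 (limma adjusted p = 0.00186), which passes the test on the lower side. Over 21 alternatives the adjusted p ranged from 0.000397 to 0.281 and the log2 fold change from -0.68 to -0.25, so its sign was negative in each of them. The values rest on 279 to 371 reads in depleted libraries and 391 to 535 reads with asparagine, and GENCODE lists 4 pseudogenes named after ASNS, whose reads could be mixed with its own, as could those of AC079781.5, which shares exon sequence on the same strand.

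GLUL, the gene of glutamine synthetase (chromosome 1, 182381704 to 182392206), fell. It had 201, 181 and 192 CPM in depleted libraries, against 399.7, 431 and 402 CPM with asparagine. The libraries of each group lay close together, depleted library 1 included. GLUL averaged 191 ± 9.64 CPM in depleted cells, 2.15-fold below the 411 ± 17.5 CPM with asparagine (SD, n = 3 each). The change was -1.10 on the log2 scale (SE 0.11, limma adjusted p = 0.00053), and -1.19 after the GC correction. GENCODE lists 4 pseudogenes named after GLUL.

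The aspartate aminotransferase genes moved in opposite directions. GOT1 (chromosome 10, 99396870 to 99431569), whose product works in the cytosol, had 331, 306 and 290.1 CPM in depleted libraries, against 58.6, 62.5 and 60.4 CPM with asparagine. It rose 5.11-fold, to 309 ± 20.6 CPM in depleted cells, against 60.5 ± 1.92 CPM with asparagine (SD, n = 3 each; log2 fold change 2.33, SE 0.11, limma adjusted p = 5.17e-05). GOT1 ranked 110 from the highest log2 fold change among the 11892 genes. GOT2 (chromosome 16, 58707131 to 58734357), the mitochondrial form, had 58.9, 56.8 and 60.4 CPM in depleted libraries, against 195, 189 and 174 CPM with asparagine. It fell 3.17-fold, to 58.7 ± 1.78 CPM in depleted cells, against 186 ± 10.9 CPM with asparagine (log2 fold change -1.65, SE 0.11, limma adjusted p = 0.000186). For neither gene did depleted library 1 stand away from the other depleted libraries, and the GC correction left the log2 fold changes at 2.49 and -1.58.

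Per kilobase of transcript, the GOT1 level was 3.92, 3.76 and 3.35 times the GOT2 level in depleted libraries, and 0.210, 0.231 and 0.242 times the GOT2 level with asparagine. The cytosolic form thus had the higher level of the pair in each depleted library and the lower one in each library with asparagine. This ratio within a library does not depend on how libraries were scaled, and it was 16.2 times higher in depleted cells. It was computed after the values of both genes had been seen and is given without a test. GENCODE lists 4 pseudogenes named after GOT2 and 0 named after GOT1, and each gene shares exon sequence with a non-coding gene on the opposite strand, whose reads cannot be told apart without a stated strand setting.

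GPT2 (chromosome 16, 46884378 to 46931297) encodes the mitochondrial alanine aminotransferase, which moves an amino group between glutamate and alanine. It had 443, 328 and 332 CPM in depleted libraries, against 163, 166 and 154 CPM with asparagine. All depleted libraries were above those with asparagine, library 1 the most. GPT2 rose 2.28-fold, a change of 1.17 on the log2 scale (SE 0.15, limma adjusted p = 0.00131), which was 1.03 without depleted library 1 and 1.52 after the GC correction.

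GLUD1 (chromosome 10, 87050486 to 87094866), the mitochondrial glutamate dehydrogenase gene, had 109.7, 109.8 and 115 CPM in depleted libraries, against 156, 172 and 159.7 CPM with asparagine. It was lower by the smallest step of the 3 genes that fell, 1.46-fold, or -0.54 on the log2 scale (SE 0.11, limma adjusted p = 0.00714, at most 0.0491 over 21 alternatives). GLUD2, an intronless copy with nearly the same coding sequence, was lower too, by -0.73 (limma adjusted p = 0.00542), and reads cannot be cleanly divided between these copies. GLUD1 also shares exon sequence with SHLD2 on the opposite strand, and GENCODE lists 5 pseudogenes named after GLUD1.

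ASS1 and ASL act one after the other. Argininosuccinate synthase, from ASS1 (chromosome 9, 130444929 to 130501274), joins aspartate to citrulline, and argininosuccinate lyase, from ASL (chromosome 7, 66075798 to 66093558), splits the product into arginine and fumarate. ASS1 had 647, 359 and 363 CPM in depleted libraries, against 97.1, 101 and 98.4 CPM with asparagine. Each depleted library was more than 3 times the highest value with asparagine, and library 1 was well above the other depleted libraries. ASS1 rose 4.62-fold, to 456 ± 165 CPM in depleted cells, against 98.8 ± 1.93 CPM with asparagine (SD, n = 3 each; log2 fold change 2.14, SE 0.24, limma adjusted p = 0.000828). It was 1.86 without depleted library 1 and 2.54 after the GC correction, and GENCODE lists 11 pseudogenes named after ASS1.

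ASL had 106, 49.1 and 52.6 CPM in depleted libraries, against 82.2, 82.3 and 75.6 CPM with asparagine. Depleted library 1 was above all libraries with asparagine and the other depleted libraries were below them. The log2 fold change was -0.30 (SE 0.29, 95% interval -0.98 to 0.38, limma adjusted p = 0.408). Leaving out depleted library 1 gave -0.64 (limma adjusted p = 3.6e-05), and after the GC correction it was 0.31 (limma adjusted p = 0.0139), so the direction of ASL depended on the treatment of the data. ASL shares exon sequence on the same strand with AC068533.4, and GENCODE lists 1 pseudogene named after ASL. The ASL transcripts have the highest GC content of the 9 genes, 62.4%, and the range over the 9 was 43.8% to 62.4%. Per kilobase, ASS1 stood at 6.42, 7.65 and 7.22 times ASL in depleted libraries and at 1.24, 1.28 and 1.36 times ASL with asparagine, a ratio again computed after the values were seen.

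CPS1 (chromosome 2, 210477682 to 210679107), the gene of the mitochondrial enzyme that feeds ammonia into the urea cycle in liver, was near the lower end of the table. It had 2.70, 5.70 and 5.42 CPM in depleted libraries, against 1.996, 1.985 and 2.092 CPM with asparagine, on 71 to 202 reads. The depleted libraries were all higher, library 1 by the least. CPS1 rose 2.27-fold by the group means. Its log2 fold change of CPM + 1 was 0.84 (SE 0.24, limma adjusted p = 0.0249), a smaller step because the added 1 CPM weighs at this level, and it was 1.03 with 0.25 CPM added and 0.495 with 4 CPM added. After the GC correction it was 0.49 (limma adjusted p = 0.0147), and leaving out any single library other than depleted library 1 ended the call, with adjusted p-values up to 0.0826.

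**Figure D2:**
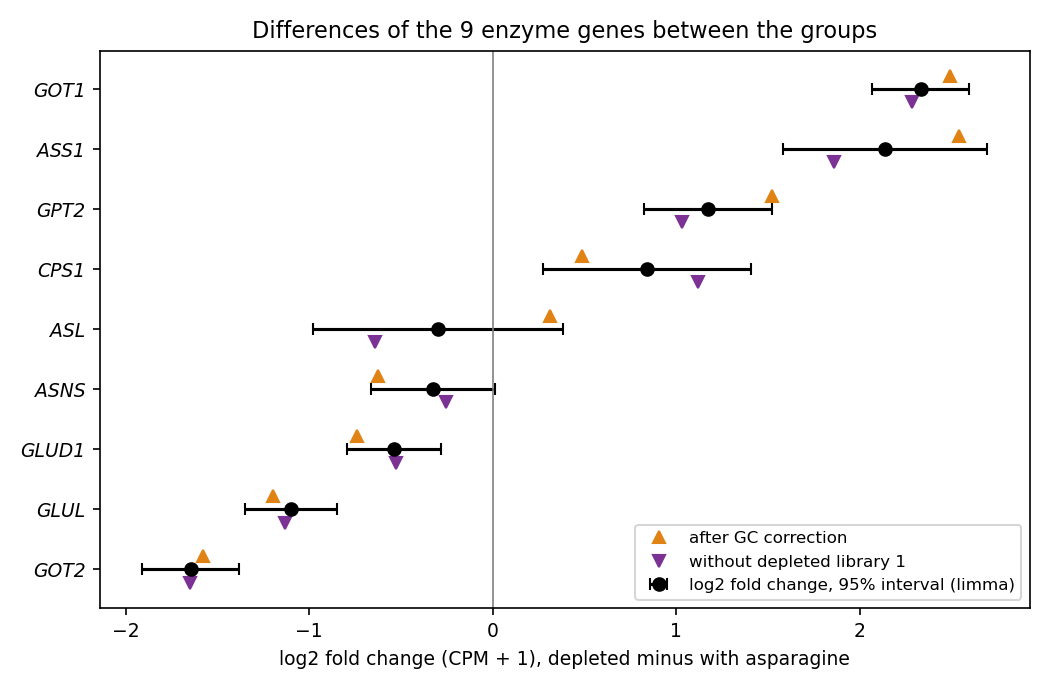
Log2 fold changes of the 9 enzyme genes, depleted minus with asparagine (horizontal axis), with 95% intervals from limma over 3 against 3 libraries (black), after the GC correction (orange) and without depleted library 1 (purple). The uncorrected values (black) run from -1.65 for GOT2 to 2.33 for GOT1, the GC-corrected value of ASS1 reaches 2.54, and ASL is the gene whose markers lie on both sides of 0.

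Taken per kilobase of transcript, so that genes can be set beside each other, the order of levels changed between the groups. In depleted cells ASS1 was first at 295 ± 107 CPM per kilobase (SD, n = 3), followed by GOT1 at 106 ± 7.04 and GPT2 at 92.2 ± 16.4, whose ranges overlapped. GLUL at 43.8 ± 2.21, ASL at 42.6 ± 19.5 and GLUD1 at 36.7 ± 1.07 came next, with ASL overlapping both of its neighbours, then GOT2 at 28.8 ± 0.871. With asparagine, GLUL at 94.2 ± 4.01 and GOT2 at 91.2 ± 5.34 CPM per kilobase led and overlapped, followed without overlap by ASS1 at 63.8 ± 1.25, GLUD1 at 53.5 ± 2.77, ASL at 49.3 ± 2.35, GPT2 at 40.4 ± 1.56 and GOT1 at 20.7 ± 0.656. ASNS and CPS1 held the last places in both groups. ASNS stood at 5.52 ± 0.681 CPM per kilobase in depleted cells and 7.06 ± 0.54 with asparagine, and CPS1 at 2.99 ± 1.07 in depleted cells and 1.31 ± 0.0382 with asparagine. The length was the median over protein-coding transcripts. With the longest transcript in its place, 7 of the 9 genes kept their place in depleted cells and 5 kept it with asparagine, ASNS and CPS1 among them in both.

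**Figure D3:**
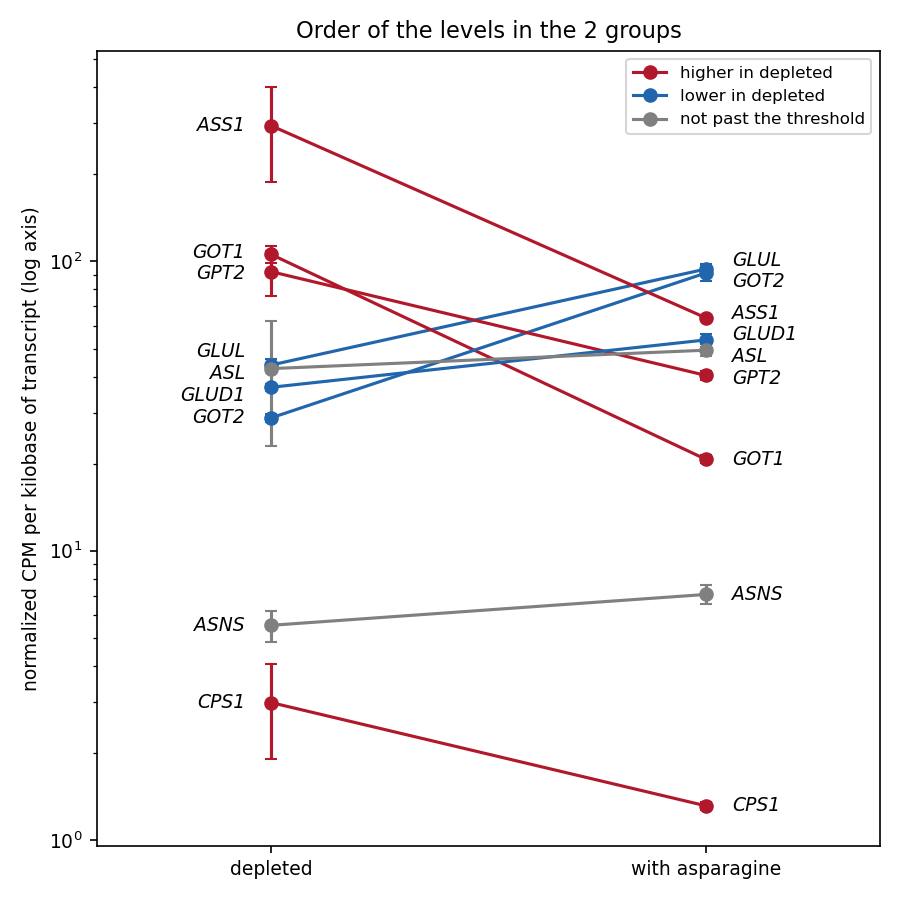
Mean level per kilobase of transcript (normalized CPM per kilobase, log axis) of the 9 enzyme genes in depleted cells (left) and cells with asparagine (right), with SD over 3 libraries. ASS1, GOT1 and GPT2 lead in depleted cells, GLUL and GOT2 lead with asparagine, and ASNS and CPS1 are at the bottom in both.

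By Pearson's r of log2(CPM + 1) over the 6 libraries, the genes most like ASNS were PRKCQ-AS1 (0.982), FDXACB1 (0.977) and MTFMT (0.968), among 10543 genes with a mean of at least 5 CPM. Only 9 genes reached an r above 0.95 with ASNS, against 925 with GOT1, 1062 with GOT2 and 607 with ASS1. The likest genes were HBEGF for GOT1 (0.9999), TNFRSF21 for GOT2 (0.9997), GAS7 for ASS1 (0.9994), TNIP2 for ASL (0.9994), SLC25A3 for GLUL (0.9996), HSPE1 for GLUD1 (0.9996), LILRB4 for GPT2 (0.9999) and ZNF559 for CPS1 (0.9997). All genes share the same 6 libraries, their scaling and the difference between groups, so these values describe a pattern and no link between genes.

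Most other genes of the response that ASNS is known to belong to rose. Of 15 factors and targets of the amino acid response, 11 were higher and 1, ALDH18A1 of proline synthesis, was lower. Over all genes 25.1% were higher and 26.2% lower. The median log2 fold change of the 15 genes was 1.83, beside 0.0098 for all genes. The largest were the cystine exchanger gene SLC7A11 (4.39, limma adjusted p = 0.000395), the pseudokinase gene TRIB3 (4.20, limma adjusted p = 5.56e-05), SESN2, a brake on mTORC1 (3.82, limma adjusted p = 5.72e-05), and the transcription factor gene ATF3 (3.72, limma adjusted p = 3.03e-05). ATF4, PHGDH and PYCR1 did not pass. After the GC correction ATF4 and PHGDH passed on the higher side (0.55 and 0.35, limma adjusted p = 0.00291 and 0.00859). SLC7A11 was at 3.63 and TRIB3 at 4.80 after the GC correction. With that correction 13 were higher and 1 lower, beside 35.1% and 34.3% of genes. Without depleted library 1 the counts were 11 and 3, beside 40.5% and 41.3% of all genes. RefSeq windows were at hand for 13 of the 15 genes. Windows of 4 genes, ATF3, CEBPG, CHAC1 and SLC3A2, hold the core found in the printed ASNS window. This counts genes, which can have several windows, so it is not a like measure to the 3.61% of single windows. The share of all genes with the core was not computed, so these 4 genes cannot be judged against it. These lists, like the 9 genes, were drawn up with earlier results known.

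Enzymes that use glutamine as a donor of nitrogen, the family to which ASNS belongs by its reaction, were mixed. Of 9 other glutamine amidotransferases tested, 1 rose and 3 fell, beside 25.1% and 26.2% of all genes. Their median log2 fold change was -0.37. GFPT1, which starts the hexosamine pathway, rose 5.78-fold (log2 fold change 2.46, SE 0.26, limma adjusted p = 0.000777), with 288, 544 and 563 CPM in depleted libraries, against 81.3, 72.6 and 87.4 CPM with asparagine. PFAS of purine synthesis fell 3.73-fold (limma adjusted p = 0.000463). CTPS1, which makes CTP, fell 2.64-fold and CAD, which starts pyrimidine synthesis from glutamine and uses aspartate in its next step, fell 2.52-fold (limma adjusted p = 0.000336 and 0.00141). After the GC correction 1 was higher and 7 were lower, beside 35.1% and 34.3% of genes. The log2 fold change of GFPT1 was then 1.83 and that of CAD -0.85, against -1.34 for CAD without the correction.

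Of 18 other enzymes listed as making or using aspartate, asparagine, glutamate or glutamine, 2 rose and 5 fell, beside 25.1% and 26.2% of all genes. Their median log2 fold change was -0.099. After the GC correction 4 rose and 9 fell, beside 35.1% and 34.3% of genes. Without depleted library 1 the counts were 7 and 6, beside 40.5% and 41.3%. AGA, a lysosomal enzyme that cuts the bond between asparagine and its sugar, rose to 37.7, 49.3 and 52.6 CPM in depleted libraries, against 16.6, 17.3 and 19.4 CPM with asparagine (log2 fold change 1.33, SE 0.16, limma adjusted p = 0.00123). IL4I1, an amino acid oxidase gene, rose 5.01-fold from a low level (limma adjusted p = 0.00405). It had 11.8, 6.71 and 4.58 CPM in depleted libraries, against 1.46, 1.76 and 1.37 CPM with asparagine. KYAT1, a transaminase gene that accepts glutamine, fell 3.69-fold, and BCAT2, the mitochondrial branched-chain transaminase gene, fell 2.37-fold (limma adjusted p = 0.00157 and 0.0052). The log2 fold changes of AGA and BCAT2 were 0.91 and -0.70 after the GC correction, against 1.33 and -1.25 without it. The asparaginase genes ASPG and ASRGL1 were on the list but not among the genes of the table.

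GOT1 and GOT2 work in the malate-aspartate shuttle, which carries reducing equivalents into mitochondria. Of its 5 other members, 2 fell and the other 3 did not pass, with a median log2 fold change of -0.25. After the GC correction 5 fell. Over all genes 26.2% were lower, and 34.3% after that correction. MDH2, the mitochondrial malate dehydrogenase gene, fell 2.07-fold (limma adjusted p = 0.00272) and SLC25A11, the oxoglutarate carrier gene, fell 1.93-fold (log2 fold change -0.98, limma adjusted p = 0.00829), with -0.51 left after the GC correction. The cytosolic partner MDH1 had a log2 fold change of -0.25 (limma adjusted p = 0.154), and the aspartate-glutamate carrier genes SLC25A12 and SLC25A13 had 0.055 and 0.041 (limma adjusted p = 0.76 and 0.836). Both mitochondrial enzymes of the shuttle, GOT2 and MDH2, were thus lower, and of the cytosolic ones GOT1 was higher and MDH1 did not pass.

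Around ASS1 and ASL, 4 of 10 listed genes of the urea cycle and arginine supply were in the table. Of these, 1 rose and 1 fell, beside 25.1% and 26.2% of all genes. SLC7A1, the arginine importer gene, rose 2.13-fold (log2 fold change 1.09, limma adjusted p = 0.000491), and SLC25A15, the mitochondrial ornithine carrier gene, fell 1.52-fold (limma adjusted p = 0.0102), a call lost without library 1 or library 2 with asparagine (limma adjusted p = 0.0533 and 0.0597). ARG2 and NOS3 did not pass. Without depleted library 1 the counts were 2 higher and 2 lower, beside 40.5% and 41.3% of all genes. OTC, NAGS and ARG1 were not among the genes of the table.

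Of 9 genes that charge tRNA with these amino acids, 3 rose and 2 fell, beside 25.1% and 26.2% of all genes. Their median log2 fold change was 0.082. The GC correction gave 3 higher and 3 lower, beside 35.1% and 34.3% of genes, and a median of -0.15. Without depleted library 1 the counts were 4 higher and 3 lower, beside 40.5% and 41.3%. The asparaginyl-tRNA synthetase genes of both compartments rose. NARS, the cytosolic one, had 368, 561 and 569.8 CPM in depleted libraries, against 188, 190.0 and 205 CPM with asparagine (log2 fold change 1.33, SE 0.19, limma adjusted p = 0.0019). NARS2, the mitochondrial one, had 155, 194 and 189 CPM in depleted libraries, against 78.5, 85.2 and 83.7 CPM with asparagine (log2 fold change 1.11, SE 0.13, limma adjusted p = 0.00105). No library of a group overlapped the other group for either gene, which also held for 61.1% of all genes tested. The log2 fold changes of NARS and NARS2 were 1.08 and 0.71 after the GC correction. EPRS, for glutamate and proline, rose 1.88-fold (log2 fold change 0.88, limma adjusted p = 0.0154), but 0.46 was left after the GC correction, and the call was lost without depleted library 2 or 3 or without library 1 or 2 with asparagine (limma adjusted p = 0.0589, 0.0521, 0.0579 and 0.0658). EARS2, for glutamate in mitochondria, and QARS, for glutamine, fell 2.06-fold and 1.71-fold (limma adjusted p = 0.00298 and 0.00946), and the log2 fold change of QARS was -0.79, and -0.47 after the GC correction.

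Of 7 carriers of these amino acids tested, 3 rose and 2 fell, beside 25.1% and 26.2% of all genes. Their median log2 fold change of -0.23 was 0.0036 with quantile normalization and 0.20 after the GC correction. Without depleted library 1 the counts were 3 higher and 4 lower, beside 40.5% and 41.3% of all genes. SLC38A2 and SLC38A1, which import glutamine and other small neutral amino acids, rose 3.14-fold and 2.25-fold (limma adjusted p = 0.00706 and 0.0112), with log2 fold changes of 1.57 and 1.12 that were 0.94 and 0.70 after the GC correction. SLC1A4 was higher by 0.34 on the log2 scale (limma adjusted p = 0.0461), a call at the threshold whose adjusted p reached 0.17 over 21 alternatives and whose value was 0.61 after the GC correction. SLC38A5, which also carries glutamine and asparagine, fell 5.51-fold, to 32.8, 22.1 and 19.1 CPM in depleted libraries, against 132, 145 and 131 CPM with asparagine (log2 fold change -2.45, SE 0.21, limma adjusted p = 0.000361). SLC25A22, a mitochondrial glutamate carrier gene, fell 2.36-fold (log2 fold change -1.26, limma adjusted p = 0.00586), with -0.60 left after the GC correction.

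**Figure D4:**
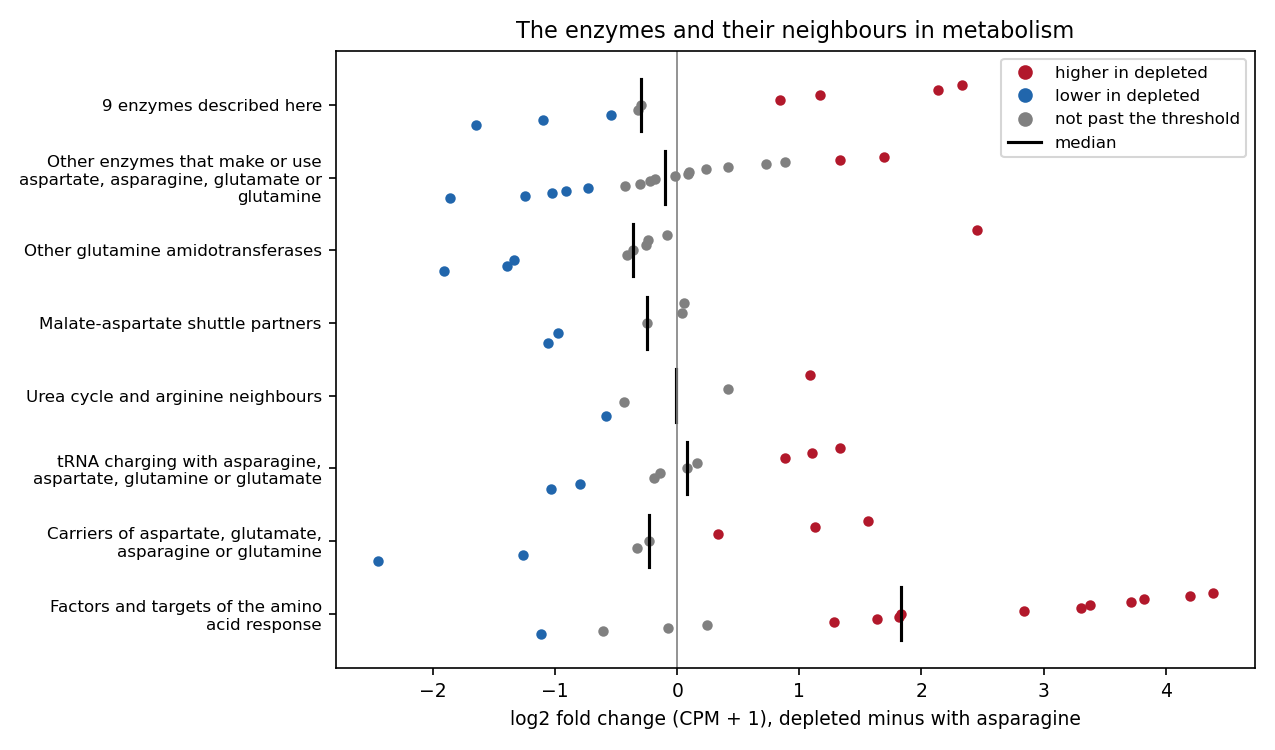
Log2 fold changes of single genes, depleted minus with asparagine (horizontal axis), for the 9 enzymes and 7 lists of neighbouring genes; colours give the limma call over all genes and black lines give medians. The list of the amino acid response has its median at 1.83, and the other medians lie between -0.37 and 0.082.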

How the data were processed

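RNA of 6 libraries was sequenced. The submitters' processing notes name FastQC, STAR, featureCounts of Subread and build GRCh38; no version, annotation, strand setting or scaling method is given in the sources used here. The values the authors deposited are normalized CPM, a signal per gene scaled for depth. Column totals were 918783 to 1031234. Each value was a whole multiple of what 1 read is worth (100% of values, tolerance 1e-06), which gave the reads, and 3 reads correspond to 0.0598 to 0.092 CPM.

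Values were analysed as log2(CPM + 1) with limma 3.58.1 in R 4.3.3, with group as the only term and an intensity trend, keeping 11892 genes that reached 1 CPM in 3 or more libraries. The step was also run on simulated data that held no GC trend and no odd library, so that run does not speak to those features. Folds are ratios of group means in CPM. Positions, transcript lengths and GC content came from GENCODE 29 (GC content for 95.4% of genes), and the GC correction removed a lowess trend (span 0.3). Reads printed here are worked back from the deposited values, and the table holds too few low values for a separate check of them. They entered 1 alternative, voom with limma, and no negative binomial model was fitted. The text names all 9 genes, up to 4 genes per list by size of change among those called (5 CPM or more in the higher group), and the likest genes by r (3 for ASNS, 1 for each of the others). GLUD2, QARS, SLC1A4, MDH1, SLC25A12, SLC25A13, ALDH18A1 and genes named as not passing were added after their values were seen. The genes, lists and tests were chosen with earlier results of these data known. The fit to genes with a GC value, the GC correction without depleted library 1 or with the replicate block, and the ratios were chosen with the present values in view. In all, 22 alternatives were run.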

Additional observations from a re-analysis of the deposited data

How the results depend on the processing

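Of the 9 enzymes, GOT1, ASS1, GPT2, GOT2, GLUL and GLUD1 kept their direction and their call under the 22 alternatives. The count of enzymes was 3 to 5 higher and 3 or 4 lower over all of them, and 3 to 4 and 3 to 4 when single libraries were left out. ASL turned to higher under the GC correction alone (0.31), with the replicate block added to that correction (0.31), and under that correction without depleted library 1 (0.23). Leaving out depleted library 1 without the correction gave -0.64. The cause was not tested. ATF4 was 0.24, turned to -0.027 without depleted library 1, and reached 0.39 when other single libraries were left out. With the GC correction ATF4 was called higher (0.55, limma adjusted p = 0.00291). That held with the replicate block added (0.55, limma adjusted p = 0.0061) and with depleted library 1 left out (0.42, limma adjusted p = 8.79e-06). CPS1 lost its call with quantile normalization (0.71, limma adjusted p = 0.0596) and did not pass the threshold of 0.01 (limma adjusted p = 0.0249). With the filter raised to 5 CPM, CPS1 was not tested. EPRS lost its call without any of 4 single libraries and SLC25A15 without either of 2. EPRS, SLC25A15, SLC38A1 and SLC1A4 did not pass the threshold of 0.01 either (limma adjusted p = 0.0154, 0.0102, 0.0112 and 0.0461). Over all genes, leaving out single libraries gave 1728 to 4812 higher and 1814 to 4913 lower, against 2987 and 3116. The lowest were without library 2 with asparagine, and the counts were 1756 and 1845 without library 1 with asparagine, 1902 and 1975 without depleted library 2, and 4812 and 4913 without depleted library 1. The GC correction without depleted library 1 gave 4487 higher, and a threshold of 0.01 gave 1612 higher and 1703 lower, since fewer genes pass it. With the longest transcript, 5 of 9 genes kept their place in the order with asparagine. The r of deviations from group means was 0.083, -0.65 and 0.69 for replicate numbers 1, 2 and 3. These values cannot show whether the numbers pair the libraries, since deviations within a group depend on each other and depleted library 1 stood apart. The replicate block gave 2824 higher and 2989 lower genes and 4 higher and 3 lower enzymes. The quasi-likelihood and negative binomial count models listed as alternatives were not run. Depth limits ASNS and CPS1, with 71 to 535 reads per library, more than the other enzymes.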
